A study of Mus musculus with 6 samples.

Results

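The inflammasome sensors and caspases were read here as 9 genes chosen by name: the sensors Nlrp3, Nlrc4, Aim2 and Mefv, the adaptor Pycard, the caspases Casp1, Casp4 and Casp8, and the pore-forming substrate Gsdmd. All probes that the platform annotation gives to these symbols were taken, 17 of the 45281 probes on the array, and each gene was read through its brightest probe. Of the 17 probes, 13 were above the detection level of 6.9 in at least 3 of the 6 mice, which left 8 of the 9 genes, among 9173 such genes in all. The samples were 3 TLR7tg mice, a lupus model with a Tlr7 transgene, and 3 B6 wild-type mice, and the array measured RNA of cells isolated from the spleen. The series describes NK1.1+ cells in both groups, while single samples are named NK1.1+ cells in TLR7tg and NK cells in B6. NK1.1 is a surface receptor carried by natural killer (NK) cells of this strain. The copy number and promoter of the transgene, its strain background, the age and sex of the mice and the way the cells were sorted are not given in the sources used here. All values below are normalised log2 signals, and all differences are TLR7tg minus B6.

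An inflammasome forms when a sensor protein in the cytosol meets a microbial or damage signal and recruits, often through the adaptor ASC (Pycard), an inflammatory caspase. The active caspase cleaves the precursors of interleukin-1 beta and interleukin-18 and the pore protein gasdermin D (Gsdmd), whose released end opens the plasma membrane and can kill the cell by pyroptosis. The machinery is best known from macrophages, monocytes and neutrophils, where several of its parts are made only after a priming signal such as Toll-like receptor engagement or interferon. NK cells are known chiefly as killers by granule release and as responders to interleukin-18. RNA levels say how much message there was and nothing about whether an inflammasome had formed.

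The targeted gene followed the labels. Tlr7, whose protein senses single-stranded RNA in endosomes, had log2 signals of 13.04, 14.45 and 13.92 in TLR7tg mice, against 8.48, 9.39 and 9.53 in B6 mice, a difference of 4.67 (SE 0.38, limma adjusted p = 0.000248). Marker genes went against reading the TLR7tg cells, whose single samples are labelled NK1.1+, as NK cells alone. Klrb1c, the gene of NK1.1, was above the detection level in every TLR7tg mouse, at 7.08, 7.41 and 7.92. It was lower there than in B6 mice, which had 8.96, 9.93 and 10.02. Of 9 measured NK cell markers, all 9 were lower in TLR7tg. Their summed linear signal was 2378, 2721 and 7788 in TLR7tg mice, against 61122, 55975 and 54509 in B6 mice. The defining NK genes Ncr1 and Eomes were below the detection level in every TLR7tg mouse, and Ncr1 was low in B6 mice too, at 7.44, 7.50 and 7.45. The other 7 NK markers, such as Nkg7 at 9.50, 9.23 and 11.22, were above the level in every TLR7tg mouse. Of 10 tested neutrophil markers, 9 were higher in TLR7tg, with sums of 46698, 88291 and 5853 in TLR7tg mice and 2071, 1861 and 1304 in B6 mice. TLR7tg replicate 3 thus stood apart from the other TLR7tg mice, with the lowest neutrophil sum and the highest NK sum of the group. Of 11 monocyte and macrophage markers, 6 were higher, with sums from 63748 to 72505 in TLR7tg and from 10974 to 22440 in B6. Itgam, C1qa, C1qb, Ccr2 and Cx3cr1 did not pass. Of 3 tested T cell markers, all 3 were lower, with sums of 966 to 1160 in TLR7tg and 2781 to 3468 in B6. All sums in this paragraph run over every listed gene with a probe, tested or not. These are 11 neutrophil, 6 T cell, 6 dendritic cell and 3 B cell genes, so untested genes such as Cd4, Cd8a and Cd5 add background signal. Of 3 tested erythroid markers, 2 were higher, with sums of 9505 to 31798 in TLR7tg and 1815 to 4248 in B6. Of 3 dendritic cell and 2 B cell markers tested, 0 passed, and the sums overlapped for both types. The dendritic cell genes Flt3 and Xcr1 and the B cell gene Pax5 were below the level in all mice. The part of these cell mixtures in the inflammasome values was not tested, and in bulk RNA fewer cells of a type and less RNA per cell cannot be told apart.

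**Figure D1:**
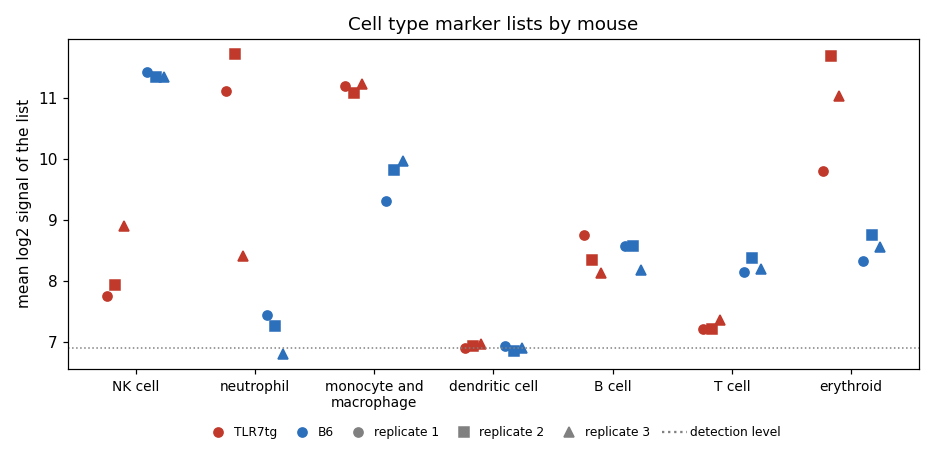
Mean log2 signal of each cell type marker list (vertical axis) in each mouse, TLR7tg in red left of B6 in blue, with the shape giving the replicate and the dotted line the detection level. The 3 TLR7tg mice lie below all B6 mice on NK cell and T cell markers and above them on neutrophil, monocyte and macrophage, and erythroid markers, and TLR7tg replicate 3 lies nearest to B6 on NK cell and neutrophil markers.

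Among the 8 measured members, 3 rose in TLR7tg cells, 0 fell and 5 did not pass. The genes that rose were the sensors Nlrc4 (1.95-fold) and Mefv (1.96-fold) and the caspase gene Casp4 (2.39-fold). Over all 9173 genes 7.74% passed as higher and 6.97% as lower. Values of the 3 TLR7tg mice lay wholly above those of the B6 mice for 4 members, Nlrc4, Mefv, Casp4 and Aim2, and wholly below them for 0. Groups that did not overlap were found for 32.7% of all genes, and with TLR7tg on top for 14.1%. The median difference of the 8 members was 0.57, against -0.06 over all genes, and 7 of the 8 differences were positive. With mice of neighbouring identifiers as a block, 4 members passed as higher, as did 1118 of all genes (12.2%). The members were chosen with results of these data in view, so these counts describe them and carry no test of the list.

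**Figure D2:**
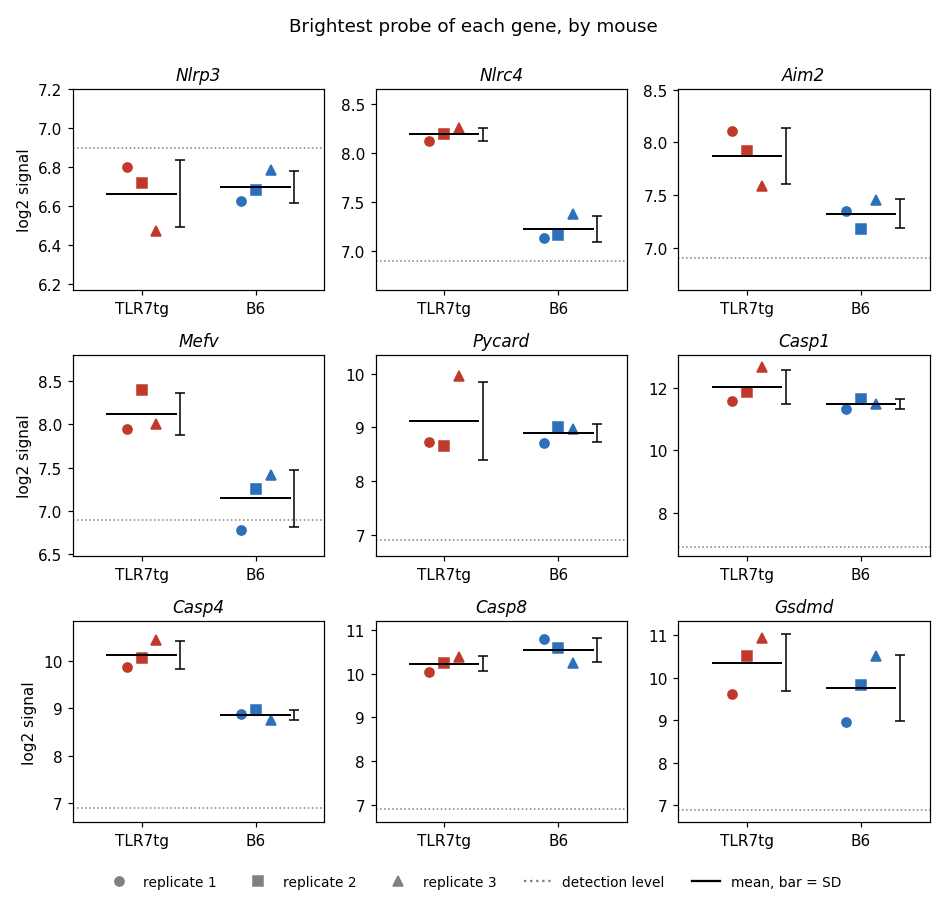
Normalised log2 signal (vertical axis) of the brightest probe of each of the 9 genes in the 3 TLR7tg mice (red) and, to their right, the 3 B6 mice (blue), with a marker shape for each replicate, a line at the group mean, a bar for the SD and a dotted line at the detection level of 6.9. Nlrc4, Mefv, Casp4 and Aim2 have every TLR7tg mouse above every B6 mouse, Nlrp3 lies below the level in all 6 mice, and Pycard and Casp1 are highest in TLR7tg replicate 3.

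NLRC4 is a sensor that joins the NAIP proteins when these bind flagellin or parts of a bacterial secretion system. Nlrc4 had log2 signals of 8.12, 8.19 and 8.26 in TLR7tg mice, against 7.14, 7.16 and 7.37 in B6 mice. The groups were narrow and well apart. The means were 8.19 ± 0.07 in TLR7tg and 7.22 ± 0.13 in B6 (SD, n = 3 each), a difference of 0.97 (SE 0.16, limma adjusted p = 0.00527). Replicate 1 of each group shared a slide that the labels name. The 2 mice of that slide differed by 0.99 and the remaining 4 mice by 0.96. Nlrc4 still passed without TLR7tg replicate 3 (0.93, adjusted p = 0.0194). Of all genes measured, B430306N03Rik had the pattern over the 6 mice nearest to that of Nlrc4, with a root-mean-square distance of 0.08 between the gene-centred log2 values.

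Mefv encodes pyrin, a sensor made mainly in neutrophils and monocytes. Mefv had log2 signals of 7.95, 8.40 and 8.01 in TLR7tg mice, against 6.78, 7.25 and 7.41 in B6 mice. B6 replicate 1 was below the detection level, and no B6 mouse reached the lowest TLR7tg mouse. The means were 8.12 ± 0.25 in TLR7tg and 7.15 ± 0.33 in B6 (SD, n = 3 each), a difference of 0.97 (SE 0.22, limma adjusted p = 0.0200). On the named slide it was 1.17, against 0.87 in the remaining 4 mice. The call ended with no filter on dim probes (adjusted p = 0.0600) and without TLR7tg replicate 2 (0.0720), B6 replicate 1 (0.0578) or B6 replicate 2 (0.0636), over a range of 0.00400 to 0.0720 in limma's alternatives. Without TLR7tg replicate 3, the mouse with the lowest neutrophil sum of its group, the difference was 1.03. The part of the cell mixture in it was not tested. The nearest gene by pattern was Tlr6, at a distance of 0.10.

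AIM2 binds double-stranded DNA in the cytosol. Aim2 had log2 signals of 8.11, 7.92 and 7.58 in TLR7tg mice, against 7.35, 7.18 and 7.45 in B6 mice. The groups did not overlap, but TLR7tg replicate 3 came close to the highest B6 mouse. The difference of 0.54 (SE 0.19) did not pass (limma adjusted p = 0.107), and in no alternative did it pass (0.0506 to 0.320). On the named slide it was 0.76, against 0.43 in the remaining 4 mice. A second Aim2 probe had 7.42, 6.94 and 7.50 in TLR7tg mice, against 6.94, 7.12 and 6.95 in B6 mice, and the groups overlapped (0.29, adjusted p = 0.438). Qk had the pattern nearest to that of the brighter Aim2 probe, at a distance of 0.03. In the order of RefSeq genes on chromosome 1, Aim2 lies beside Ifi206 and Ifi214, other members of its family.

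NLRP3 responds to potassium loss and many kinds of membrane damage. Nlrp3 had log2 signals of 6.80, 6.72 and 6.47 in TLR7tg mice, against 6.63, 6.68 and 6.79 in B6 mice. All 6 values lay below the detection level of 6.9, so the gene was not tested. Without a filter its difference was -0.03 (limma adjusted p = 0.981). A second probe also stayed below the level, with 6.80, 6.58 and 6.75 in TLR7tg mice, against 6.69, 6.59 and 6.54 in B6 mice. On the arrays of replicate 1, the detection p-values of the brighter Nlrp3 probe were 0.0160 and 0.0887 in TLR7tg, against 0.582 and 0.280 in B6. Nlrp3 message was therefore not well above background on these probes, which is no measure of its absence.

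The adaptor did not pass. Pycard encodes ASC, which links a sensor to the caspase and packs into a single large speck. Pycard had log2 signals of 8.73, 8.66 and 9.95 in TLR7tg mice, against 8.70, 9.01 and 8.97 in B6 mice. Only TLR7tg replicate 3 stood above the B6 mice. The difference was 0.22 (SE 0.33, limma adjusted p = 0.770), and it turned to -0.20 without TLR7tg replicate 3. The other Pycard probe was below the level in 5 of the 6 mice.

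Casp4 encodes the mouse protein usually called caspase-11, which binds bacterial lipopolysaccharide itself and cleaves gasdermin D without a separate sensor. Casp4 had log2 signals of 9.86, 10.07 and 10.43 in TLR7tg mice, against 8.89, 8.96 and 8.75 in B6 mice. All TLR7tg mice were higher by a wide gap. The means were 10.12 ± 0.29 in TLR7tg and 8.87 ± 0.10 in B6 (SD, n = 3 each), a difference of 1.26 (SE 0.19, limma adjusted p = 0.00338). On the deposited scale this was the largest difference of the 8 members, while after background correction and on the scanner scale those of Mefv and Nlrc4 were larger, and on the scanner scale that of Aim2 too. On the named slide it was 0.98, against 1.40 in the remaining 4 mice, and it passed in all 16 alternatives run (0.00134 to 0.0202). A second, dimmer Casp4 probe had 7.83, 8.68 and 8.99 in TLR7tg mice, against 7.38, 7.91 and 8.11 in B6 mice. On it the groups overlapped and the difference of 0.70 did not pass (adjusted p = 0.206), although it passed with neighbouring identifiers as a block (0.0134). The last Casp4 probe reached the level in 2 B6 mice only and was not tested, with 6.79, 6.80 and 6.84 in TLR7tg mice, against 6.81, 7.01 and 7.20 in B6 mice. The probes of Casp4 thus gave unequal answers. By pattern the nearest gene to the brightest Casp4 probe was Igtp, an interferon-inducible GTPase, at a distance of 0.13. Some gene is nearest to any pattern, and neither the distance nor shared regulation was tested.

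Casp1 encodes caspase-1, the enzyme that most inflammasomes activate and that matures interleukin-1 beta. Casp1 had log2 signals of 11.60, 11.87 and 12.67 in TLR7tg mice, against 11.33, 11.66 and 11.49 in B6 mice. The groups overlapped, and TLR7tg replicate 3 was the highest of all mice. The difference was 0.55 (SE 0.27, 95% confidence interval -0.06 to 1.17, limma adjusted p = 0.252), and 0.24 without TLR7tg replicate 3. It did not pass in any alternative (0.0820 to 0.575). In the RefSeq gene order of chromosome 9, Casp1, Casp4 and Casp12 follow one another. Of these 3 neighbours, Casp4 rose, Casp1 did not pass and Casp12 was below the detection level.

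Casp8 encodes caspase-8, which starts apoptosis at death receptors, holds back necroptosis and can also join ASC specks. Casp8 had log2 signals of 10.05, 10.24 and 10.39 in TLR7tg mice, against 10.80, 10.58 and 10.26 in B6 mice. It was the 1 measured member with a negative difference, -0.32 (SE 0.20, limma adjusted p = 0.374), and the groups overlapped. A second Casp8 probe had 9.45, 10.01 and 9.69 in TLR7tg mice, against 10.35, 10.05 and 10.03 in B6 mice. On this probe every TLR7tg mouse was below every B6 mouse, by little, and the difference of -0.42 did not pass (adjusted p = 0.234). On the brighter probe the difference was -0.75 on the named slide, against -0.11 in the remaining 4 mice, and on the other probe it was -0.89 on that slide, against -0.19 in the remaining 4 mice.

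Gsdmd encodes gasdermin D, the pore of pyroptosis. Its 3 probes did not give one call. The brightest Gsdmd probe had log2 signals of 9.62, 10.53 and 10.94 in TLR7tg mice, against 8.97, 9.82 and 10.51 in B6 mice. The spread within each group was wide and the groups overlapped, with a difference of 0.59 (SE 0.42, limma adjusted p = 0.456). With neighbouring identifiers as a block this difference passed (adjusted p = 0.0207), as did the mean of the 3 probes without a block (0.74, adjusted p = 0.0296). The second Gsdmd probe had 10.42, 9.74 and 10.27 in TLR7tg mice, against 9.64, 9.15 and 9.62 in B6 mice, a difference of 0.68 that missed the threshold (adjusted p = 0.0978, with the block 0.0110). The third Gsdmd probe, the dimmest, had 9.34, 9.17 and 9.43 in TLR7tg mice, against 8.43, 8.36 and 8.28 in B6 mice. On it the groups were far apart, and the difference of 0.95 (SE 0.17, adjusted p = 0.00572) passed in all 15 alternatives run (0.00224 to 0.0325). Counted over any measured probe, 4 members passed as higher. A gene with several probes has more chances in such a count, and its share over all genes was not computed. Of the 13 measured probes 4 passed as higher, beside 1178 of the 16535 measured probes of the array. Of the 13, 11 had a positive and 2, both of Casp8, a negative difference, and the share of positive differences over all probes was not computed.

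**Figure D3:**
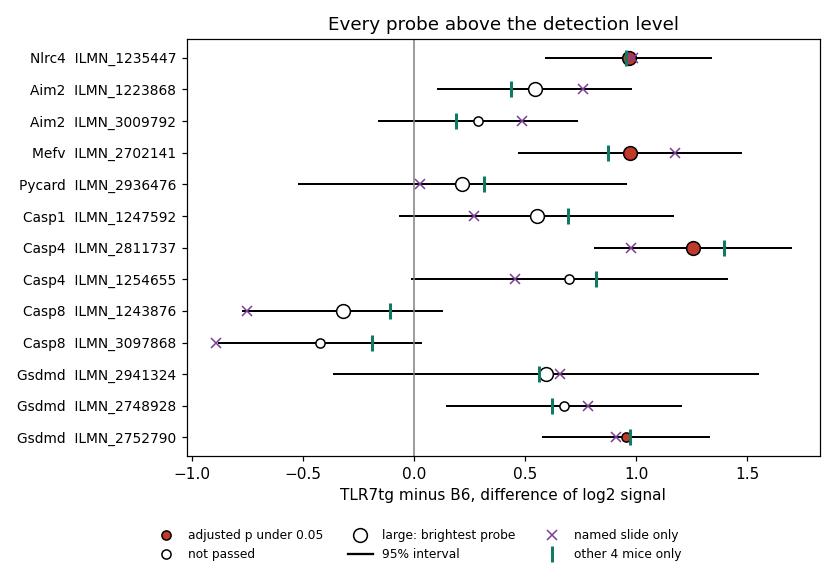
TLR7tg minus B6 difference of log2 signal (horizontal axis) for each of the 13 measured probes of the 8 measured genes, with 95% confidence intervals, red points where the adjusted p was under 0.05, large points for a gene's brightest probe, crosses for the 2 mice of the named slide and green ticks for the remaining 4. The probes of Nlrc4, Mefv, 1 of 2 for Casp4 and 1 of 3 for Gsdmd passed, and both Casp8 probes lie below 0.

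The 2 mice of the named slide were each measured on 2 technical arrays, which show how well the signals repeat. On the scanner's linear scale without normalisation, Nlrc4 had 1001 and 1348 on the arrays of TLR7tg replicate 1, against 172 and 189 on those of B6 replicate 1. Mefv had 787 and 1165 on the TLR7tg arrays, against 108 and 114 on the B6 arrays, where its detection p-values were 0.0748 and 0.0652. Without normalisation Casp8 too was higher on the TLR7tg arrays, at 5080 and 7454, against 4648 and 4717 on the B6 arrays. Gaps on this scale thus do not measure a difference between the mice. After quantile normalisation of these 4 arrays the difference in log2 signal was 1.87 for Nlrc4, 1.38 for Aim2, 1.09 for Casp4, 0.25 for Casp1, 0.03 for Pycard, 0.74 for Gsdmd and -0.76 for Casp8. Mefv was not well above background on either B6 array and was at least 5.30-fold higher in TLR7tg, with B6 set at the lowest signal detected on its arrays. These are 1 mouse a group, with no test, and for the 8 measured members every sign after normalisation is that of the 6-mouse difference. Per the labels, the deposited replicate 1 values are means of these same arrays, so the signs are not independent. Nlrp3, below the detection level, differed by 0.32 on the scanner scale and by -0.03 over the 6 mice. The dim genes Nlrc4 and Aim2 differed by more on this scale than in the deposited values, and the bound for Mefv also exceeds its deposited 1.96-fold. Background correction of the deposited values likewise gave 1.44 for Nlrc4, 1.52 for Mefv and 0.82 for Aim2, so fold values of these dim genes depend on the scale.

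**Figure D4:**
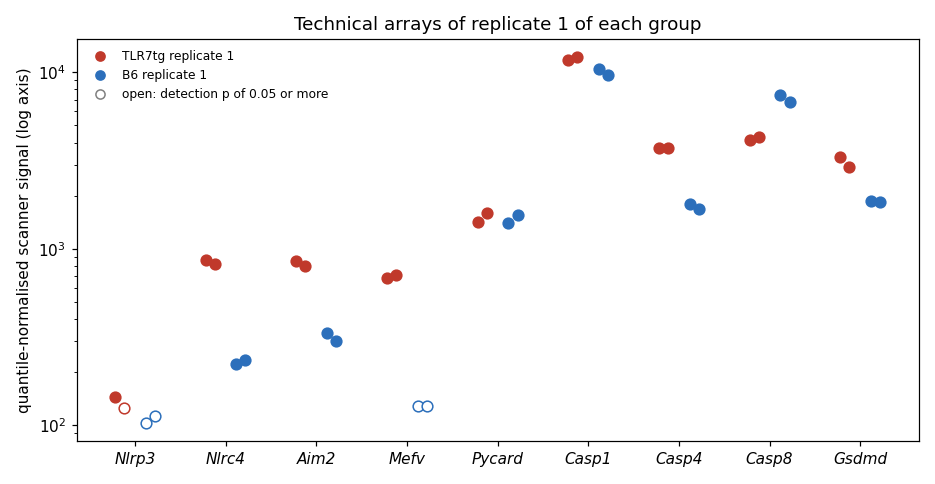
Scanner signal after quantile normalisation (vertical axis, logarithmic) of the brightest probe of each gene on the 2 technical arrays of TLR7tg replicate 1 (red, left) and of B6 replicate 1 (blue, right), with open points where the detection p-value was 0.05 or more. The technical pairs lie close together, Nlrc4, Aim2, Mefv, Casp4, Gsdmd and, by less, Casp1 are higher in TLR7tg, Casp8 is lower in TLR7tg, and the Pycard pairs overlap. Nlrp3, not detected on either B6 array, lies near background at 144 and 125 in TLR7tg, against 103 and 113 in B6.

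For the 3 genes that rose, the 250 bases before the first listed start are shown from RefSeq (assembly GRCm38.p6), since these are the members that passed as higher. They are written 5′ to 3′ along the gene, and capitals mark matches, on either strand, to an NF-kB-type motif (GGGNNTTCC) or to the core of ETS factor sites (AGGAAG):
Nlrc4, chr17:74459109-74459358, minus strand: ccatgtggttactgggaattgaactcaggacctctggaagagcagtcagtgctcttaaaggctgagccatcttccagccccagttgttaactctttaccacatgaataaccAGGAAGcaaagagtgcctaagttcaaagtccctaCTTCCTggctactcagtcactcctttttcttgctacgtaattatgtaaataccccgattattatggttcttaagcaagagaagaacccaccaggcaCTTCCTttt
Mefv, chr16:3718125-3718374, minus strand: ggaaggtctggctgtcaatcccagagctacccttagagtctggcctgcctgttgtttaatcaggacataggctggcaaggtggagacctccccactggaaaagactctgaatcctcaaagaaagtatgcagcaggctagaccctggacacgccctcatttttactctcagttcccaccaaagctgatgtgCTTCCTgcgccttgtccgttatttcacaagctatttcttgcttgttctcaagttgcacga
Casp4, chr9:5308599-5308848, plus strand: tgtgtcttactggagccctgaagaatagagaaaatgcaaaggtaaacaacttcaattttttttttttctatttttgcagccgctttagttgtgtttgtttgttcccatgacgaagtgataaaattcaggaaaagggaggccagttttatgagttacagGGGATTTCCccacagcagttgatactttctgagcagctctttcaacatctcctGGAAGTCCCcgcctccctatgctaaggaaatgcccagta

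Both capital runs of the Casp4 promoter are NF-kB-type matches, and those of Nlrc4 (3) and Mefv (1) are ETS cores, so neither motif was in all 3 promoters. Of the 8 members with a promoter in the table, an NF-kB-type match was in 2, Nlrp3 and Casp4, and an ETS core in 6. Over all 32851 promoters, windows of the same length held the NF-kB-type motif in 4.98% and the ETS core in 29.48%. A STAT-type motif (TTCNNNGAA, 7.02% of promoters) and an interferon-response-type motif (GAAANNGAA, 7.13%) were in 0 of the 8. The motifs were picked after the sequences were seen, and a match is a run of letters, not a shown binding site.

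The wider pathway was described through 4 further gene lists. Among other cytosolic sensors, 22 were listed, 16 had a named probe, 7 of these were below the detection level, and of the 9 measured 3 rose and 0 fell. Ifi205, of the DNA-binding family of Aim2, had log2 signals of 9.49 ± 0.62 in TLR7tg and 6.98 ± 0.14 in B6 (SD, n = 3 each), a difference of 2.50 (limma adjusted p = 0.000920). The B6 values lay near the detection level, which 2 B6 mice reached, so the size of the Ifi205 difference depends on the scale. It was 3.41 after background correction and 1.96 over the mean of the gene's probes. Nlrx1, a mitochondrial member of the NLR family, had 9.38 ± 0.14 in TLR7tg and 8.19 ± 0.12 in B6, a difference of 1.19 (adjusted p = 0.00234) that was 0.69 over the mean of its probes. Naip2, whose protein recognises a bacterial secretion part and then engages NLRC4, had 8.42 ± 0.04 in TLR7tg and 7.73 ± 0.10 in B6 (adjusted p = 0.0213). The Naip2 call ended without TLR7tg replicate 3 or any single B6 mouse and in the 4 mice off the named slide, with adjusted p up to 0.104. Naip5, the flagellin-binding partner of NLRC4, chosen for that role after its value was seen, differed by 0.97 and did not pass (adjusted p = 0.128). The median difference of the 9 was 0.55. With neighbouring identifiers as a block 5 of the 9 passed as higher. The shares of all genes to set beside the counts of these lists are 7.74% higher and 6.97% lower, and 12.2% higher with the block.

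Among genes of inflammasome assembly and regulation, 13 of 16 were measured, of which 2 rose and 2 fell, beside 7.74% and 6.97% of all genes. Of the 13, P2rx7 and Pstpip2 were below the detection level in every B6 mouse and were measured only through TLR7tg, where they are higher, so that Gbp2 is the 1 gene measured in both groups that rose. The median difference was 0.31, and 0.15 with those genes at their bound. With neighbouring identifiers as a block 3 of the 13 passed as higher and 3 as lower, beside 1118 and 1166 of the 9173 genes. Gbp2, an interferon-inducible GTPase that helps expose bacterial products to caspase-11, had 13.23 ± 0.91 in TLR7tg and 11.08 ± 0.43 in B6 (SD, n = 3 each), a difference of 2.14 (limma adjusted p = 0.00969). That call ended with no filter on dim probes (0.0741) and without TLR7tg replicate 2 (0.0512). Pstpip2, a membrane-curving protein whose loss causes interleukin-1-driven bone inflammation in mice, was at 7.47 ± 0.25 in TLR7tg and not above the detection level in any B6 mouse (6.74 ± 0.11), at least 1.48-fold higher (adjusted p = 0.0328 for a gene kept only through TLR7tg). Such a bound sets the TLR7tg mean against 6.9. The Pstpip2 call ended without TLR7tg replicate 1 or 2 or any single B6 mouse and in the 4 mice off the named slide, with adjusted p up to 0.139. Panx1, a channel that releases ATP, was lower at 8.81 ± 0.33 in TLR7tg and 9.60 ± 0.19 in B6 (-0.79, adjusted p = 0.0415). Txnip, a thioredoxin inhibitor reported to bind NLRP3, was lower at 12.03 ± 0.20 in TLR7tg and 12.81 ± 0.23 in B6 (-0.78, adjusted p = 0.0288). Both falls lost their call in 9 of 16 alternatives, among them leaving out TLR7tg replicate 1 or 3 or any single B6 mouse, with adjusted p up to 0.149 for Panx1 and 0.108 for Txnip. Irf8, a transcription factor that drives Naip gene expression in mouse macrophages, had 9.92 ± 0.02 in TLR7tg and 10.41 ± 0.16 in B6, a difference of -0.49 that missed the threshold (adjusted p = 0.0933, with the block 0.0444).

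Among cytokine substrates and lytic release, 4 of 7 genes were measured, of which 2 rose and 0 fell, beside the same shares of all genes. The median difference of these 4 was 0.94, and 0.84 with Gsdme, which was below the level in every B6 mouse, at its bound. Gsdme, kept only through TLR7tg, did not pass (limma adjusted p = 0.0545). With neighbouring identifiers as a block 3 of the 4 passed as higher, beside 12.2% of all genes. Il1b, the precursor that caspase-1 matures, had log2 signals of 11.20, 11.29 and 11.85 in TLR7tg mice, against 7.67, 8.16 and 9.32 in B6 mice. Every TLR7tg mouse was far above every B6 mouse, by 3.07 on average (limma adjusted p = 0.00131), or 8.37-fold. Il18, the other cytokine precursor, had 8.56 ± 0.38 in TLR7tg and 8.16 ± 0.51 in B6 (SD, n = 3 each) and did not pass (0.40, adjusted p = 0.469). Il1rn, the receptor antagonist that blocks interleukin-1, had 7.49, 8.05 and 8.47 in TLR7tg mice, against 6.79, 7.28 and 6.97 in B6 mice (limma adjusted p = 0.0381). The Il1rn difference of 0.99 was 1.59 after background correction, and its call ended with no filter and without TLR7tg replicate 2 or 3 or any single B6 mouse, with adjusted p up to 0.132. Il1a was below the detection level, as were Hmgb1 and Ninj1, which is a reading of their probes and no measure of absence of the message.

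Among caspase-8 partners and apoptotic caspases, 15 of 19 genes were measured, of which 1 rose and 0 fell (median difference 0.09), a share near the 7.74% of all genes that were higher. The gene that rose was Fas, a death receptor that recruits caspase-8, with 9.41 ± 0.20 in TLR7tg and 8.21 ± 0.36 in B6 (SD, n = 3 each; limma adjusted p = 0.00779). Over the mean of its probes the Fas difference was 0.75 and passed (adjusted p = 0.0174). With neighbouring identifiers as a block 3 of the 15 passed as higher, beside 12.2% of all genes. In the same TLR7tg mice 9 of 10 tested neutrophil markers and 6 of 11 monocyte and macrophage markers were higher, and NK cell markers were lower. Their sums are given above, and the part of these cell types in these 4 lists was not tested.

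**Figure D5:**
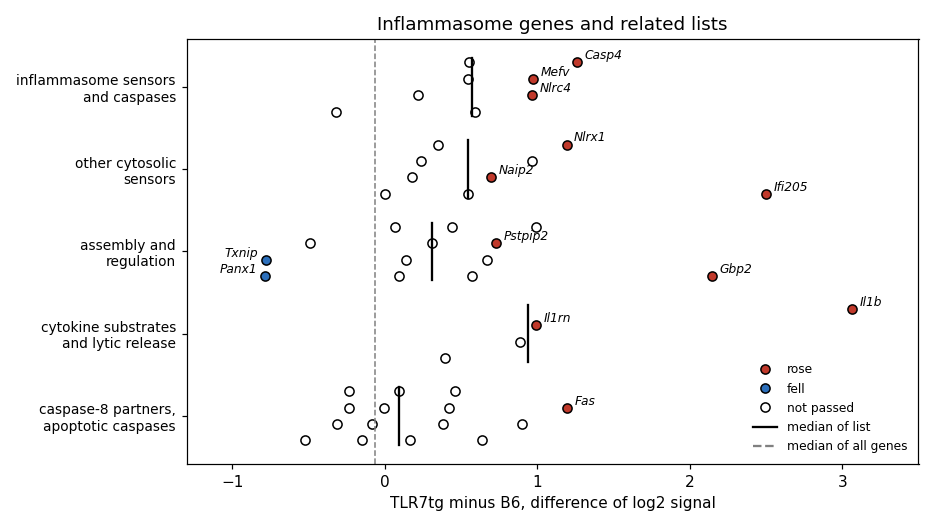
TLR7tg minus B6 difference of log2 signal (horizontal axis) of each measured gene of the 9 members and the 4 further lists, red where it rose, blue where it fell and open where it did not pass, with a bar at each list's median and a dashed line at the median of all genes (-0.06). Il1b, Ifi205 and Gbp2 lie farthest to the right, and Panx1 and Txnip are the 2 genes that fell. The genes of caspase-8 and apoptosis lie on both sides of 0, from -0.53 (Casp6) to 1.20 (Fas), with a median of 0.09.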

How the data were processed

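RNA of 6 mice was hybridised to an Illumina mouse BeadArray after biotin labelling, per the labels' protocols. The deposited log2 values of 45281 probes have one shared distribution (6.10 to 15.09, median 6.72), the mark of quantile normalisation, with no sign of background subtraction. The sources used here name no tool. Per the labels, replicate 1 of either group is a mean of 2 technical arrays. The deposited scanner table holds linear probe intensity and, per the file headers, a detection p-value per array. Its 8 columns that match no mouse were not used, so the slide of the other 4 mice is unknown.

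The detection level of 6.9 is where at least 95% of probes in each 0.1 bin upward had a detection p-value under 0.05, which 42.05% of probes met in TLR7tg replicate 1 and 40.86% in B6 replicate 1. The 16535 probes at or above it in at least 3 mice were fitted with limma 3.58.1 in R 4.3.3 (lmFit, eBayes, Benjamini-Hochberg over all of them, threshold 0.05), after tests on simulated data. The median SD between mice was 0.258 in TLR7tg and 0.211 in B6. Precision is limited by the 3 mice a group. A gene was read through its brightest measured probe. Platform gene names (34885 probes with 1 gene) were checked against RefSeq, which changed 0.

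Members and lists were chosen with earlier results of these data known. Named were all members, the up to 3 largest rises and falls past the threshold in each other list, Il1b, Il18, Il1a and Irf8, Tlr7, and up to 4 genes nearest by pattern. Naip5, P2rx7, Gsdme, Casp12, Hmgb1 and Ninj1 were named outside this rule, after their values were seen. Groups came from the labelled line, since 1 TLR7tg title repeats the identifier of a B6 mouse. Mice with neighbouring identifiers were tried as a block, since their deviations from the group means correlated at 0.63, 0.12 and 0.45. The labels do not name them as pairs, and TLR7tg replicate 2 correlated more with B6 replicate 3 (0.21) than with B6 replicate 2. Alternatives were other detection filters, the mean of a gene's probes, trended eBayes, array weights, the slide or the identifiers as a block, normexp correction (offset 16), leaving out each mouse, and the 4 mice off the named slide.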

Additional observations from a re-analysis of the deposited data

How the results depend on the processing

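The count of members higher in TLR7tg stayed between 2 and 4 under all alternatives, and 0 members were lower in each. Nlrc4 and Casp4 passed in all 16 alternatives, while Mefv passed in 11 of 15. With neighbouring identifiers as a replicate block 4 members were higher, the pairing adding Gsdmd. Of the genes and probes followed one by one, it also brought Irf8, the second Casp4 probe and the second Gsdmd probe past the threshold. Among these it ended no call. Other named genes, among them Naip5, P2rx7 and the marker genes, were not followed so. Gsdme passed with the block too, since 3 of the 4 measured cytokine and lytic release genes were higher and Il18 was not (limma adjusted p = 0.269). Over all genes, 710 were higher and 639 lower. The higher genes numbered 459 with no filter on dim probes, 1118 with the identifier block and 421 to 756 when each mouse was left out. The lower genes numbered 1083 with the slide as a block, 1166 with the identifier block and 341 to 629 without single mice. Over all probes, 1178 were higher and 984 lower. The higher probes numbered 728 with no filter, 760 with detection in all 6 mice, 1885 with the identifier block and 668 to 1242 without single mice. The lower probes numbered 645 with detection in all 6 mice, 1695 with the slide block, 1832 with the identifier block and 543 to 975 without single mice. The cause of these shifts was not tested. Signal over background limits Nlrp3, and the scale of the deposited values limits the folds of Nlrc4, Mefv and Aim2.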
